A study of Homo sapiens with 7 samples.

Results

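The array carried probes for 169 olfactory receptor genes of chromosome 11, chosen as the non-control spots whose gene name is a receptor symbol and whose annotated position is on that chromosome, out of 36337 gene names in all. They were measured by 185 probes of 60 bases, with 1 probe for 153 genes and 2 probes for 16. Both choices rest on the annotation of the array and use no signal. A further 211 receptor genes lay on other chromosomes or had no position in the files.

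The study asked which stresses change transcription in the way that an extra chromosome does, and bafilomycin A1, an inhibitor of the vacuolar proton pump, was one of its stresses. The samples were HCT116 H2B-GFP cells, a human colon carcinoma line labelled as diploid that carries the histone H2B fused to green fluorescent protein, exposed to 10 nM bafilomycin for 30 h. There were 4 biological replicates, each hybridised to 1 single-colour array, and the 4 arrays lay on 1 slide. The 3 untreated samples of the same line were not analysed here, so no difference between treated and untreated cells was measured, and all values describe treated cells.

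Olfactory receptors are G protein-coupled receptors and form the largest gene family of the human genome. A mature olfactory neuron expresses a single receptor gene from a single allele, while the rest of the repertoire is packed in silent chromatin. Chromosome 11 holds the largest share of the family in clusters, including the class I receptors, the lineage related to fish receptors, which sit on its short arm around the beta-globin genes. Receptor coding sequences lack introns, many receptor genes have decayed to pseudogenes, and transcripts of some receptors are known from tissues outside the nose.

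Most of these genes gave no signal well above background, the flag that the scanner software sets for a spot clearly brighter than its surroundings. A gene was counted as called on an array when more than 50% of the spots of at least 1 of its probes carried that flag. Of the 169 genes, 113 (66.9%) were called on no array, against 35.5% of all 36337 gene names. At the other end, 28 genes (16.6%) were called on all 4 arrays, against 52.6% of all gene names. The remaining 28 genes were called on some arrays only, 5 on 3 arrays, 10 on 2 arrays and 13 on 1 array, and this share of 16.6% stood beside 11.9% for all gene names. Counting genes called at least once gave 56 receptor genes, against 64.5% of all gene names. By array, 45, 36, 43 and 36 receptor genes (26.6%, 21.3%, 25.4% and 21.3%) were called on replicates 1 to 4, and 60.8%, 58.8%, 57.2% and 55.8% of all gene names. No spot of a receptor gene was saturated (0 spots on each array).

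**Figure D1:**
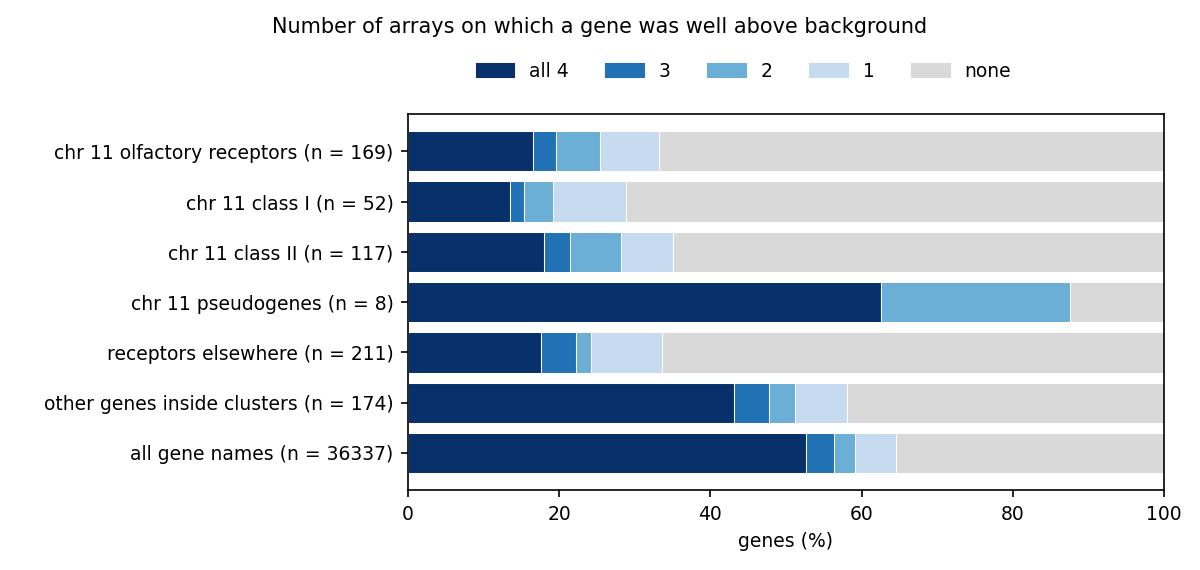
Share of genes in percent (x axis) by the number of arrays, of 4, on which the gene was well above background, for the receptor genes of chromosome 11, their classes and pseudogenes, receptor genes elsewhere, other genes inside the receptor clusters and all gene names (y axis). The grey part, called on no array, covers 66.9% of the receptor genes of chromosome 11 and 35.5% of all gene names.

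The receptor genes on other chromosomes or without a position gave nearly the same shares, with 37 of 211 (17.5%) called on all 4 arrays and 140 (66.4%) on none. The genes without receptor names that lie inside the chromosome 11 clusters, taken as runs of receptor probes with gaps of at most 1 Mb, were called more often, 75 of 174 (43.1%) on all 4 arrays and 73 (42.0%) on none. With a gap of at most 0.5 Mb, which leaves 71 such genes, 19 (26.8%) were called on all 4 arrays and 40 on none. These shares are descriptions of the 4 arrays and were not tested against each other.

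By class, 7 of the 52 class I genes (13.5%) and 21 of the 117 class II genes (17.9%) were called on all 4 arrays, and 37 and 76 on none. Among the larger families, OR5 had 3 of 36 genes on all 4 arrays, OR4 had 6 of 25, OR52 had 2 of 24, OR8 had 3 of 22, OR51 had 5 of 22 and OR10 had 2 of 14. Neither the 6 OR56 genes nor the 5 OR9 genes included one called on all 4 arrays (0 genes). The only OR1 genes of the chromosome, OR1S1 and OR1S2, were both called on all 4 arrays. Beside these counts stand 16.6% of all 169 receptor genes and 52.6% of all gene names. Many of the families are small, and no difference between classes or families was tested. In position, the cluster on the short arm at chr11:3412455-7960182 (GRCh37, the build of the probe annotation) held 66 receptor genes, with 11 on all 4 arrays and 45 on none. The cluster at chr11:55111604-59480448 held 69, with 10 on all 4 arrays and 46 on none, and the cluster at chr11:123624300-124440839 held 21, with 5 and 12. The other 13 genes lay in smaller groups or alone. Genes on all 4 arrays were therefore spread over the chromosome and not gathered in 1 cluster.

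**Figure D2:**
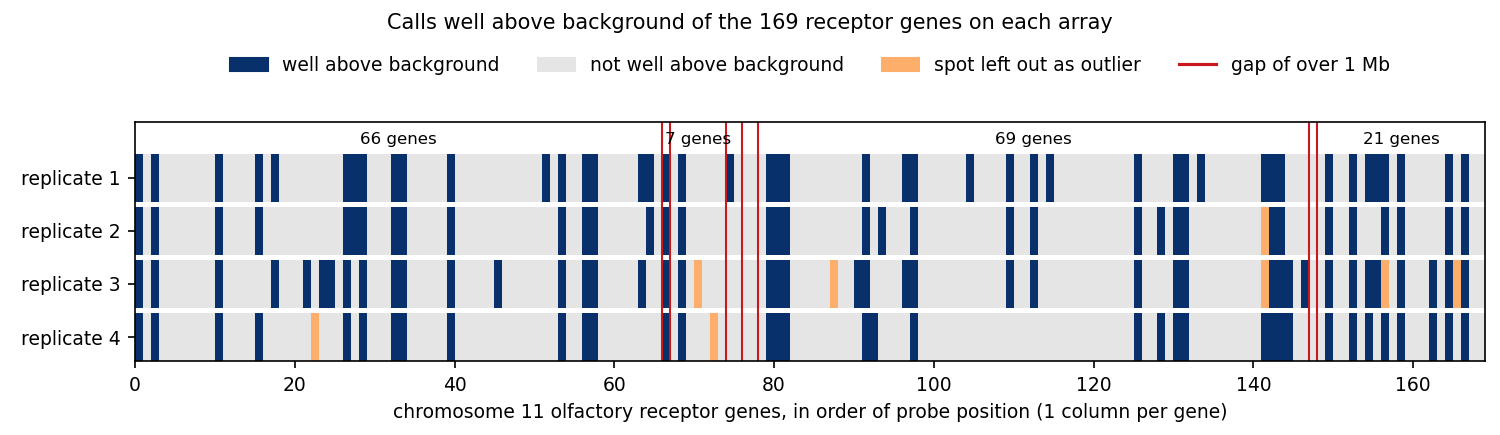
Calls of the 169 receptor genes (x axis, 1 column per gene in order of probe position, not to scale) on each of the 4 arrays (y axis), with red lines where neighbouring genes lie over 1 Mb apart. Dark columns that run through all 4 rows are the 28 genes called on every array, and orange marks arrays on which the only spot was left out as an outlier.

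Several receptors next to the beta-globin genes were among those called on all 4 arrays. HBE1, the embryonic beta-type globin, gave background-subtracted signals of 20072.5, 19015.2, 17341.2 and 14726.1 on replicates 1 to 4. The probes named HBG1, a fetal globin nearly identical to HBG2, gave 2708.6 and 3798.7 on replicate 1 and were called on all 4 arrays, as was HBD with 58.2, 57.0, 54.3 and 49.1. Neither probe of HBB, the adult beta-globin, was called on any array (0 of 2 probes).

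OR51B4, a receptor studied in colon cancer cells, has its probe 31.1 kb from the HBE1 probe. Its signals were 113, 96.1, 119 and 86.5, or 0.56 ± 0.15 (SD, n = 4) on the log2 scale relative to the array median, and it was called on all 4 arrays. OR51B5, a further 39.8 kb on and known from leukaemia cells, was called on all 4 arrays with both of its probes. The probe at chr11:5362121-5362180 gave 806, 971, 1336.4 and 768, and the probe at chr11:5364209-5364268 gave 238, 205, 272 and 195, so OR51B5 was the only receptor of the 16 with 2 probes for which both were called throughout. Replicate 3 was the highest on each of these probes. The 60-mers of OR51B4 (minus strand, chr11:5322258-5322317) and of the second OR51B5 probe (minus strand) are shown because these calls rest on them, as the files give them 5′ to 3′ and without capitals, since no stretch is singled out.
OR51B4: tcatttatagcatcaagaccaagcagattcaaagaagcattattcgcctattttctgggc
OR51B5: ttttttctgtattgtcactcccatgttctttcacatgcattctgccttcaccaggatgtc

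The calls did not run on to every neighbour. OR51B2, between OR51B4 and OR51B5, gave 28.7, 29.5, 19.2 and 19.9 and was called on 2 arrays. Neither of the 2 probes of OR51B6, next to OR51B5, was called on any array, the first with signals from -5.42 to -2.49 and the second with 12.5, 4.797, 11.8 and 12.8. OR51V1, on the far side of the globin genes, was called on none, with signals from -4.88 to 10.65. The present RefSeq gene of OR51B5 spans 6 other measured receptors. Of these, OR51I1 and OR51I2 were called on all 4 arrays and OR51B6, OR51M1, OR51Q1 and OR52D1 on none.

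**Figure D3:**
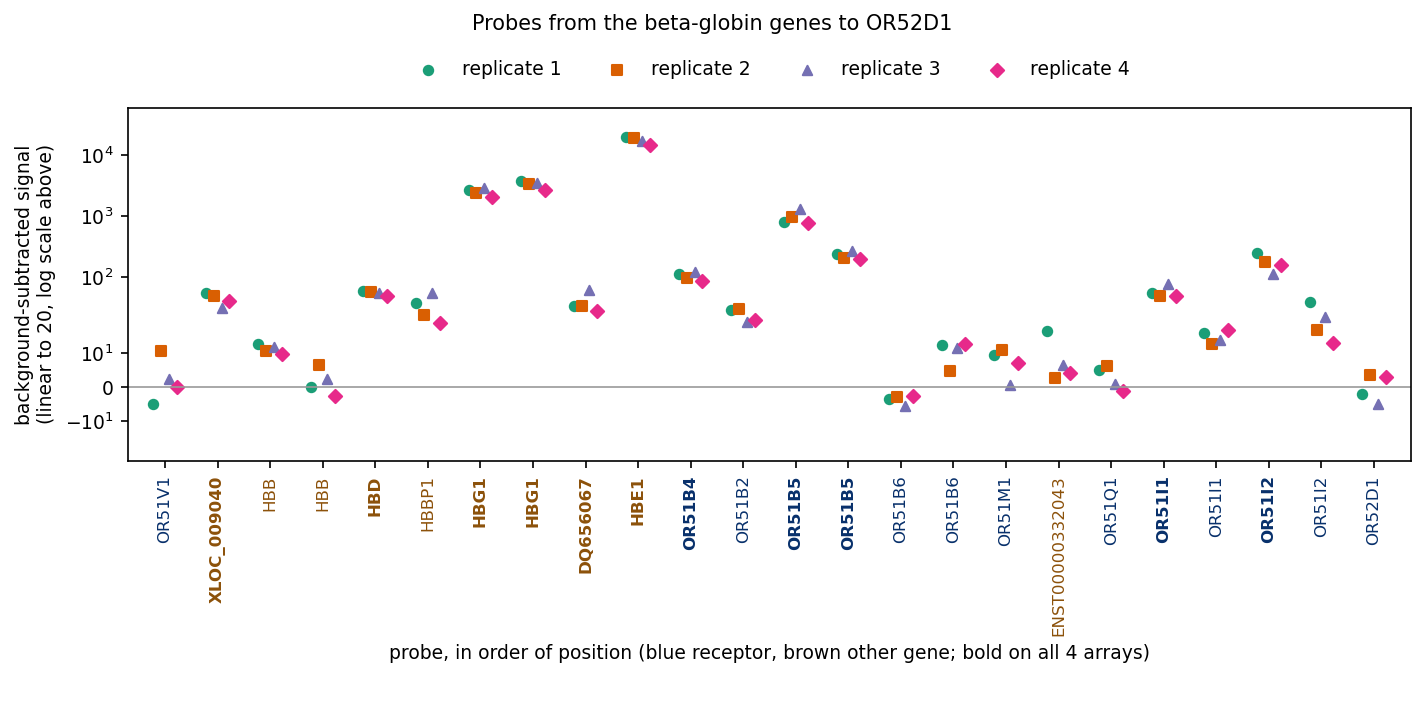
Background-subtracted signal on each array (y axis, linear up to 20 and logarithmic above) of the probes from OR51V1 over the globin genes to OR52D1, in order of position and not to scale (x axis). The 4 values of HBE1 lie between 14726.1 and 20072.5, and OR51B4, OR51B5, 1 probe of OR51I1 and 1 of OR51I2 are the receptor probes called on all 4. Levels of different probes depend on the probe and carry no ranking of the genes.

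OR51I1 and OR51I2 show how far a call can depend on the probe. For OR51I1 the probe at chr11:5461805-5461864 gave 55.7, 48.7, 77.3 and 48.6 and was called on all 4 arrays, while the probe at chr11:5462301-5462360 gave 16.1, 12.7, 14.1 and 16.9 and was called on none. For OR51I2 the probe at chr11:5475338-5475397 gave 247, 180, 112 and 157 with calls on all 4 arrays. The probe at chr11:5475598-5475657 gave 39.6, 16.9, 22.5 and 13.1 and was called on replicates 1 and 3 only. The pairs are printed in that order because they target separate stretches of the same gene and give different calls.
OR51I1 called on all 4 arrays: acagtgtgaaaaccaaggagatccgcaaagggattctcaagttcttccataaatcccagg
OR51I1 called on none: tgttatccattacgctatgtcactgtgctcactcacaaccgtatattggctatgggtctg
OR51I2 called on all 4 arrays: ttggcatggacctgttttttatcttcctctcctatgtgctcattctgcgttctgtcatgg
OR51I2 called on 2 arrays: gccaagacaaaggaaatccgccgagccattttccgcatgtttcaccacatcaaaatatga

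Over the 16 genes with 2 probes, both probes had the same number of calls in 8. In 7 of these neither was called on any array, and the eighth was OR51B5. In 3 genes, OR51I1, OR52N5 and OR5AK4P, 1 probe was called on all 4 arrays and the other on none. OR52N5 gave 46.8, 33.1, 30.8 and 36.1 on the called probe and 3.09, 10.96, 7.11 and 5.16 on the other. OR5AK4P, a transcribed pseudogene, gave 40.1, 80.5, 45.7 and 28.6 on the called probe and signals below 0 on all 4 arrays on the other, from -7.49 to -1.09.

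Probes that overlap almost fully could also differ. The pairs of OR5E1P, OR10W1 and OR5D18 are shown with the longest shared stretch in capitals, since they overlap on the genome and were called on different numbers of arrays. The OR5E1P probes, on the plus strand, start 1 base apart (chr11:7871058-7871117 and chr11:7871059-7871118) and differ at their 3′ ends, and the first was called on no array and the second on 2. OR10W1, on the minus strand, was called on replicate 1 with the first probe printed, where it gave 50.8, and on no array with the second, which gave 13.4 there. OR5D18, on the plus strand, was called on no array with the first probe and on replicate 3, at 36.6, with the second, which lies 6 bases further on.
OR5E1P called on none: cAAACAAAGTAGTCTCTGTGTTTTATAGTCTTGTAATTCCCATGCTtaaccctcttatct
OR5E1P called on 2 arrays: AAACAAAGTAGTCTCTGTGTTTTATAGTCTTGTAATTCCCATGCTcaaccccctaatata
OR10W1 called on 1 array: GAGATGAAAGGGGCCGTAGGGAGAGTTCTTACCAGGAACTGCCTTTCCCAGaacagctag
OR10W1 called on none: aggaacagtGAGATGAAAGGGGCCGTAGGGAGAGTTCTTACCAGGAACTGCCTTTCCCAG
OR5D18 called on none: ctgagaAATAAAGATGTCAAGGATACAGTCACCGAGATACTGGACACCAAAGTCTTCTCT
OR5D18 called on 1 array: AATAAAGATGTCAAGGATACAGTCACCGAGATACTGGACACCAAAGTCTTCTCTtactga

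Pseudogenes were called more often than genes annotated as protein coding. Of the 8 receptor loci that RefSeq lists as pseudogenes, 5 were called on all 4 arrays, 2 on 2 arrays and 1 (OR4C45) on none. Of the 161 protein-coding genes, 23 were called on all 4 arrays and 112 on none. The 5 pseudogenes on all 4 arrays were OR7E12P, OR7E14P, OR4C1P, OR5AK4P and the locus named OR8G2 on the array, which RefSeq now calls OR8G2P. Their share on all 4 arrays was 62.5%, and that of the protein-coding genes 14.3%, beside 52.6% of all gene names. OR5AK4P counts as called through 1 of its 2 probes. RefSeq lists all of the 8 except OR4C1P as transcribed pseudogenes, a label that itself refers to transcription. The group therefore does not stand for decayed receptors in general. It has few members, and the difference was not tested.

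OR7E12P and OR7E14P belong to the OR7E subfamily, a set of mostly decayed receptor copies dispersed over many chromosomes. OR7E12P gave 350.0, 261, 461 and 289 (2.25 ± 0.34 on the log2 scale relative to the array median, SD, n = 4), with replicate 3 the highest. OR7E14P gave 485, 408, 602 and 386 (2.73 ± 0.26), again with replicate 3 the highest. The remaining OR7E gene of the chromosome, OR7E5P, gave 33.7, 13.5, 22.9 and 22.3 and was called on 2 arrays. Over all chromosomes, 7 of the 9 OR7E genes on the array were called on all 4 arrays and the other 2 on at least 1 array, and outside chromosome 11 this held for 5 of 6 and 1 of 6. Of all gene names, 52.6% were called on all 4 arrays and 64.5% on at least 1. The 9 genes are few, and no difference was tested. Members of such a family can share sequence. The OR7E14P probe (plus strand, chr11:17074167-17074226) had 27 consecutive bases, in capitals below, in common with the probe of OR7E156P on the plus strand of chromosome 13 (chr13:64316583-64316642), which gave 393, 326, 449 and 310. The part of shared sequence in these signals was not tested. The probe of OR7E12P (minus strand, chr11:3412455-3412514) had no run of at least 16 bases in common with a probe of another gene and is printed without capitals.
OR7E14P: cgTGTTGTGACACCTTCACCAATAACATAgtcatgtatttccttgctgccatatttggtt
OR7E156P: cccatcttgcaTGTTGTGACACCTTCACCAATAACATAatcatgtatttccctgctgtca
OR7E12P: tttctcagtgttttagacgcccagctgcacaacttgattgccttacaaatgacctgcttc

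Shared runs of at least 16 bases with the probe of another gene were found for 57 of the 185 receptor probes (30.8%). They were found for 6 of the 29 probes called on all 4 arrays (20.7%), 5 of the 29 called on some (17.2%) and 46 of the 127 called on none (36.2%). Probes were compared with other probes only and not with transcripts. The same shares over all probes of the array were not computed, so these values do not show whether they are particular to receptors. What shared sequence adds to the signals was not tested. The share of G and C in the probe had a median of 43.3% for receptor probes called on all 4 arrays and 40.0% for those called on none. Over all probes of the array these medians were 45% and 40%.

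The other class I genes called on all 4 arrays were OR52K2, OR51F1 and OR52N5. OR52K2 gave 114, 190.1, 106 and 83.1, with replicate 2 the highest, and had a mean log2 level of 0.74 ± 0.47 (SD, n = 4) relative to the array median. OR51F1 gave 252, 180, 182 and 147 (1.41 ± 0.21). It lies within the RefSeq gene of MMP26, a matrix metalloproteinase whose own probe was called on no array, with signals from -5.45 to 2.96. Of the 10 receptors within that gene, OR51F1 was called on all 4 arrays, OR51A7 on 3, OR51G1 on 2 and the other 7 on none. Among the 41 receptors of the chromosome that overlap any other RefSeq gene, 8 (19.5%) were called on all 4 arrays. For the 128 that overlap none this was 20 (15.6%), beside 52.6% of all gene names. OR7E12P is 1 of the 8 and overlaps TSSC2. What an overlapping gene adds to these signals was not tested.

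Among class II genes of the short arm, OR2AG2, OR10A5 and OR10A2 were called on all 4 arrays. They lie in 1 stretch of 8 receptor genes, of which the other 5 were called on none. Of those 5, OR2AG1 and OR6A2 lie between OR2AG2 and OR10A5. OR2AG2 gave 134, 108, 79.5 and 82.6, OR10A5 gave 194, 140, 71.0 and 123, and OR10A2 gave 39.8, 32.8, 22.6 and 29.4. Replicate 3 was the lowest and replicate 1 the highest for each of the 3 genes. OR10A6, of the same family, gave 30.1, 24.1, 19.7 and 21.3 and was called on 2 arrays.

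Near the centromere OR4X2 was called on all 4 arrays, with 111, 105, 81.4 and 91.4. In the large cluster of the long arm, OR4A15, OR4C1P and OR4C15 followed each other and were all called throughout. OR4C15 had the smallest spread of the 28 genes, with 98.4, 85.4, 83.8 and 79.3 and an SD of 0.042 on the log2 scale after centring. OR4A15 gave 96.0, 84.9, 49.3 and 68.1 and OR4C1P gave 50.1, 45.7, 37.5 and 43.0, each with replicate 3 the lowest.

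Further along the same cluster OR5L2 gave 345, 220, 293 and 190.0 (1.86 ± 0.29), and OR5F1 gave 104, 106, 108 and 92.1 (0.54 ± 0.09). OR1S2 and OR1S1 are neighbours. OR1S1 gave 193, 163, 155 and 183 and OR1S2 gave 62.1, 50.8, 54.7 and 42.3, so that all 8 values were well above background. OR4D6 gave 96.1, 94.3, 82.6 and 76.4, and its neighbour OR4D10 gave 35.6, 32.3, 40.1 and 30.9. OR4D11, of the same subfamily, gave 17.1, 17.2, 32.5 and 35.9 and was called on replicates 3 and 4.

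In the distal cluster, OR6M1, OR6T1, OR8G2, OR8B3 and OR8B8 were called on all 4 arrays. OR8B8 gave 133, 123, 113 and 139 (0.86 ± 0.19), with replicate 4 the highest. OR6M1 gave 127, 95.4, 53.2 and 78.8 and OR8B3 gave 47.5, 30.4, 22.6 and 35.8, with replicate 3 the lowest in both. OR6T1 and OR8G2 varied less, with 72.9, 69.8, 71.98 and 51.6 for the first and 96.1, 89.5, 83.2 and 68.2 for the second.

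**Figure D4:**
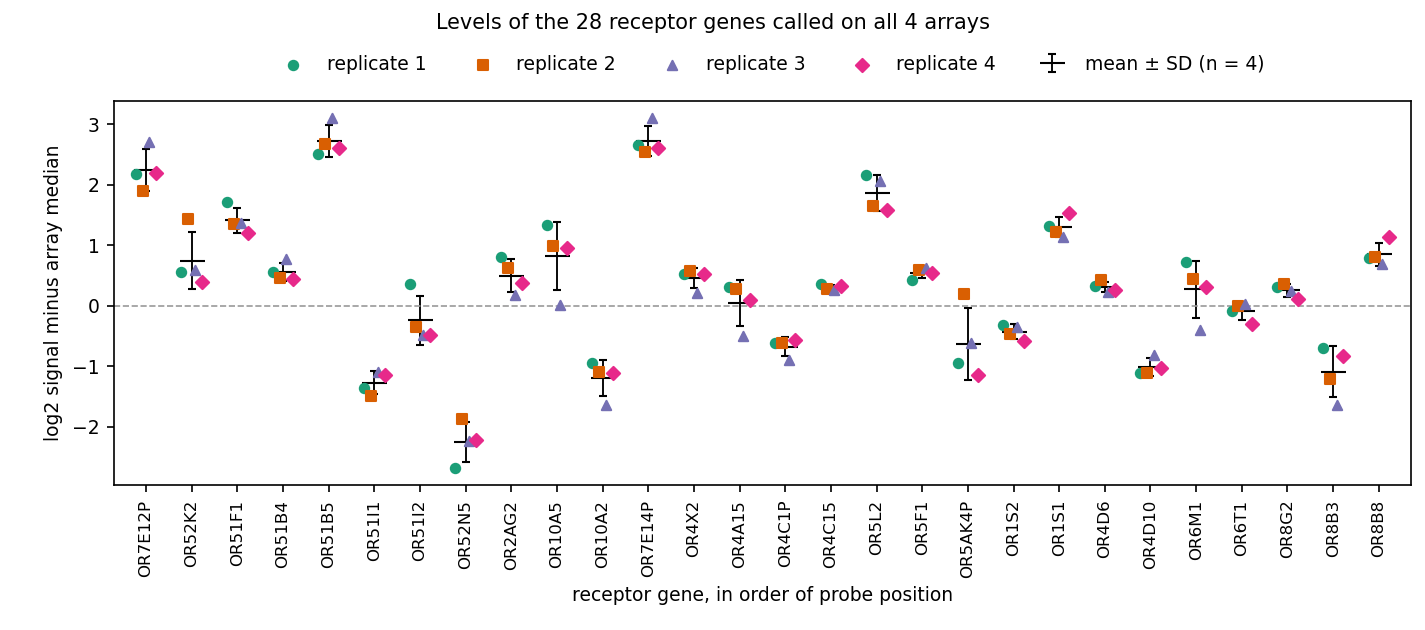
Log2 background-subtracted signal minus the array median (y axis) of the 28 receptor genes called on all 4 arrays (x axis, in order of position), with 1 point per replicate and the mean ± SD of 4 replicates. Genes with 2 probes are the median of the probes with a signal above 0, also where only 1 was called, so OR5AK4P rests on its called probe alone. The SDs run from 0.042 (OR4C15) to 0.59 (OR5AK4P), and replicate 3 is the lowest point in 13 genes.

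For the 28 genes the SD of the 4 log2 levels had a median of 0.23, against 0.21 for the 19119 genes of the array called on all 4 arrays. Replicate 3 was the lowest of the 4 values in 13 of the 28 genes and replicate 4 in 8, and replicate 1 was the highest in 11. Of the 28 genes, 16 (57.1%) lay above the array median on every array and 7 below it on every array. Over all genes called on all 4 arrays, 72.1% lay above the median throughout. The nearest probe without a receptor name that was called on all 4 arrays lay at a median distance of 96.9 kb for the 28 genes (18.4 to 502.0 kb), 180.0 kb for the genes on some arrays and 141.8 kb for those on none. With only probes whose gene name is a current RefSeq symbol, these medians were 113.4, 230.3 and 208.0 kb.

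The lowest background-subtracted signal flagged on any spot was 21.6, 21.5, 20.8 and 22.4 on replicates 1 to 4, and many of the genes called on some arrays lay near these values. Among those called on 3 arrays, OR8K3 gave 29.5, 24.1, 32.8 and 12.4 and OR8U1 gave 28.8, 27.5, 24.5 and 15.2, both missed on replicate 4. OR51A7 gave 40.7, 50.03, 12.1 and 28.1 and was missed on replicate 3. OR10G4, a receptor for smoky phenols such as guaiacol, gave 46.9, 16.7, 33.9 and 29.6 and was missed on replicate 2. OR10G8 gave 109, 86.6 and 74.5 on replicates 1, 2 and 4, and its spot on replicate 3, left out as an outlier, read 60.6.

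OR5A1, the receptor for the violet odorant beta-ionone, was called on replicates 1 and 4 with 44.1 and 33.1, and its spots on replicates 2 and 3, left out as outliers, read 31.6 and 16.7. OR9Q1 gave 20.04, 21.9, 19.99 and 45.2, with replicate 4 apart from the other 3. OR8D2 gave 18.5, 18.2, 26.0 and 23.1, and OR10G9 was called on 2 arrays with 1 of its probes and on none with the other. For OR51G1 and OR51B2 the array prints 10 spots each, which shows how a call near the limit is reached. On replicate 2, 5 of the 10 OR51G1 spots were flagged and the gene was not called, with a mean signal of 20.5 and an SD between spots of 8.25. On replicate 1, 8 of its 8 usable spots were flagged, with a mean of 32.5 and an SD of 3.33. For OR51B2, 8 of 9 usable spots were flagged on each of replicates 1 and 2 and 4 of 10 on each of replicates 3 and 4.

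The 13 genes called on 1 array were mostly from replicates 1 and 3, which held 5 and 6 of them, while replicates 2 and 4 held 1 each. Over all 1958 gene names called on 1 array, 44.4%, 23.8%, 22.2% and 9.6% fell on replicates 1 to 4. Of the 6 on replicate 3, OR52J3, OR52A5 and OR52A1 are neighbours on the short arm, 84.2 and 19.9 kb apart. They were singled out after their values were seen, and the signals of all 13 genes on the array of their call ran from 21.9 (OR4C13) to 110 (OR52A1). OR52J3 gave -9.11, 4.15, 26.3 and -2.71 on replicates 1 to 4. OR52A5 gave -1.89, 4.63, 81.5 and -4.68, and OR52A1 gave 10.9, 0.897, 110 and 2.46, so that in each case replicate 3 alone was well above background. None of the 4 other probes between them was called on replicate 3 (OR52E2, XLOC_009364, LOC100506101 and an Ensembl transcript), with signals there from -5.15 to 15.8. The 3 spots lay in rows 313, 312 and 242 and columns 30, 151 and 13 of the array, in that order of genes. The 3 probes are printed because these single readings rest on them (OR52J3 plus strand, chr11:5068632-5068691, OR52A5 minus strand, chr11:5152928-5152987, and OR52A1 minus strand, chr11:5172932-5172991). What set replicate 3 apart was not tested.
OR52J3: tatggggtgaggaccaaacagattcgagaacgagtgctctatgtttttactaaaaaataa
OR52A5: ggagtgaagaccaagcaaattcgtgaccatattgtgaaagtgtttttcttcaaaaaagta
OR52A1: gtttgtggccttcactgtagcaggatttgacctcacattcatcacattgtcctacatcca

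The 113 genes called on no array were not simply at 0. Their mean signals over the arrays ran from -7.41 (OR5B17) to 17.5 (OR51D1), with quartiles of -2.06, 1.66 and 5.05, and the SD between arrays had a median of 3.50. OR51D1 gave 18.5, 18.9, 11.7 and 20.8, below the lowest flagged signal of each array, while OR5B17 gave -11.8, -3.17, -6.04 and -8.63. Of the 108 genes with a usable spot on every array, 36 read above 0 on all 4 arrays, 57 on 1 to 3 arrays and 15 on none. The other 5 had their only spot on 1 array left out as an outlier, and for OR5D13 that spot, on replicate 3, read 56.8 and carried the flag.

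The negative control spots of the array, which match no human transcript, read lower than these probes. Their medians were -6.94, -5.67, -6.12 and -4.79 on replicates 1 to 4, over the 308 spots of each array less 16, 12, 29 and 9 outliers, against 2.05, 1.72, 1.30 and -0.15 for the 127 receptor probes called on no array. The receptor median exceeded that of the negative controls on each of the 4 arrays, by 7.11 ± 1.81 signal units on average (SD, n = 4, from 4.63 to 8.99). Probes of other genes called on no array had medians of 1.83, 1.62, 1.07 and 0.53. Both groups of uncalled probes were chosen for lacking the same flag, so their similar medians were largely set by that choice. None of those negative control spots was flagged (0 on each array), and with outlier spots kept 8, 3, 5 and 2 of 308 were. How far nonspecific binding to a gene-like sequence adds to these signals was not tested.

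**Figure D5:**
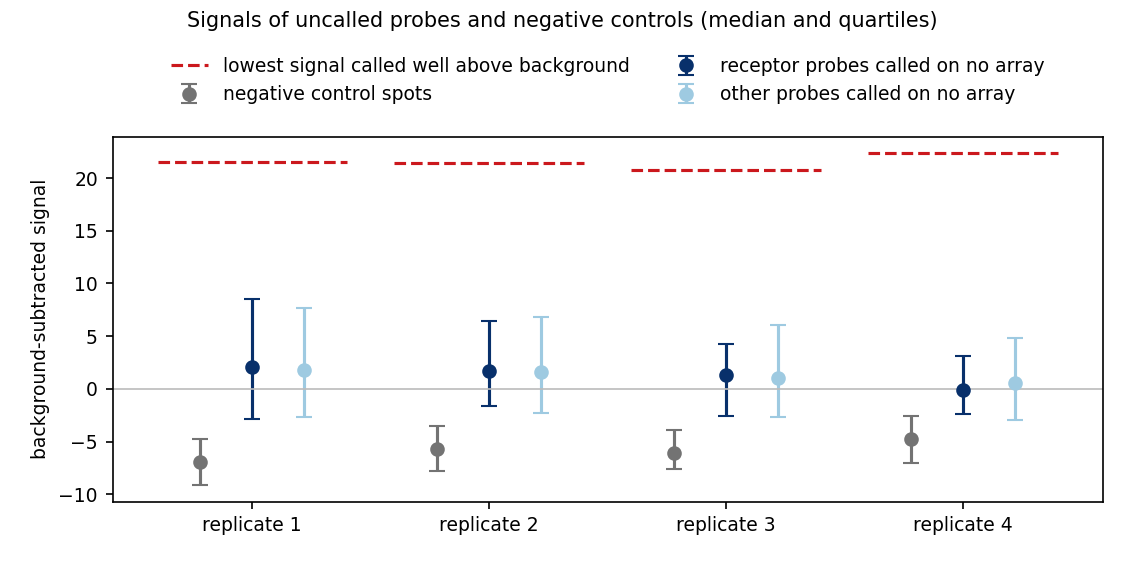
Median and quartiles of the background-subtracted signal (y axis) on each array (x axis) for negative control spots, receptor probes of chromosome 11 called on no array and other probes called on no array, with the lowest signal flagged as well above background as a dashed line. Receptor medians run from -0.15 to 2.05 and those of the negative controls from -6.94 to -4.79.

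Some receptors studied outside the nose belonged to the silent class. OR51E2, known from the prostate, gave signals below 0 on all 4 arrays (-7.44, -1.06, -4.95 and -5.04). OR51E1, its close relative, was called on no array with either probe, with gene signals from -5.44 to -0.075. OR2AT4, a receptor for a sandalwood odorant in skin cells, gave 2.78, 3.12, 5.45 and 3.33, and OR52N4 gave signals from -6.46 to 0.018. At this sensitivity their transcripts were not detectable, which does not show that they are absent.

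For genes that work with the receptors in the nose, the lists that follow were set with earlier results of these data known. Of 16 genes of olfactory signal transduction, 10 (62.5%) were called on all 4 arrays and 3 on none, beside 52.6% and 35.5% of all gene names. ADCY3, the adenylyl cyclase of olfactory cilia, gave 3113.0, 3146.2, 2904.2 and 2391.0. OMP, the olfactory marker protein, gave 106, 89.2, 98.4 and 75.9, and GNAL, the olfactory G protein alpha subunit, gave 108, 95.7, 80.4 and 59.95. The channel subunits CNGA2 and CNGA4, which open on cyclic AMP, were called on no array, with signals up to 3.70 for CNGA2 and from 5.87 to 19.8 for CNGA4.

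Of the 9 markers of olfactory sensory neurons, 4 were called on all 4 arrays (OMP, GNAL, ADCY3 and CNGB1), ANO2 on 3, RTP1 on 2 and RTP2 on 1, and CNGA2 and CNGA4 on none. This share of 44.4% stood beside 52.6% for all gene names. All 6 markers of colon epithelium were called on all 4 arrays (EPCAM, KRT8, KRT18, KRT19, CDH1 and CLDN4). Of 7 markers of other cells found on the array, PTPRC with 1 of its 5 probes and COL1A1 were called on all 4 arrays, DCN on 1 and the other 4 on none.

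Of 7 proteins for receptor export and folding, 3 (42.9%) were called on all 4 arrays. RTP1, which carries receptors to the cell surface, gave 31.1, 21.7, 18.3 and 11.95 and was called on 2 arrays, while REEP1 gave 541, 591, 765 and 529 and was called on all 4. Of 15 factors that act in receptor choice or heterochromatin, 10 (66.7%) were called on all 4 arrays and 4 on none, so that these lists lay on both sides of the 52.6% of all gene names. LHX2, which binds receptor enhancers, gave 1600.5, 1962.0, 1762.9 and 1605.4, and its partner LDB1 gave 175, 160, 137 and 147.

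Other chemoreceptor families were called to different extents. None of the 5 vomeronasal receptors was called on any array (0 genes), and of 27 taste receptors 8 were called on all 4 arrays and 15 on none. Of 7 trace amine receptors, 3 were called on all 4 arrays. TAAR5, a receptor for trimethylamine, gave 960, 695, 772 and 713, and TAAR9 gave 99.9 on replicate 4 and signals below 0 on the other 3. Of the trace amine receptors 3 were called on no array, and 52.6% of all gene names were called on all 4 arrays.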

How the data were processed

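The authors labelled 100 ng total RNA per treated culture with Cy3 and hybridised it to Agilent SurePrint G3 arrays (8x60K). Their deposited scanner files, written by Agilent Feature Extraction 10.7.3.1, hold linear intensity values from which the software had subtracted background, not normalized across arrays, and, for each spot, flags and a p-value that it differs from background. The deposited positions follow GRCh37. RefSeq names and biotypes (GRCh38.p14; its coordinates served only to find which genes overlap) were matched for 167 genes by symbol and for 2 otherwise.

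Here control and outlier spots were left out and spots of a probe averaged. As in the methods, log2 of the background-subtracted signal minus the array median was taken, with the median over probes of a gene, and signals at or below 0 were left out on that array. The authors took medians over replicates; means ± SD are given here. The number of arrays limits the precision. With 1 group, no test was made.

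The receptor genes, lists and rules were chosen with earlier results of these data known. Named genes are all receptors called on all 4 arrays, the 15 with most calls among those on 1 to 3 arrays, 7 studied outside the nose, those with 1 array apart by Dixon's ratio, and the extremes of the uncalled genes; other receptors were named after their values were seen. Alternatives were other flags, spot and probe rules, outlier spots kept, normexp with an offset of 50 and quantile normalization (limma 3.58.1, R 4.3.3), processed signals relative to the 75th percentile, a floor of 1, and leaving out each array. Scripts (Python 3.11.15, pandas 2.3.3, numpy 2.4.6) were tested on simulated data.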

Additional observations from a re-analysis of the deposited data

Results flagged for a closer look

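Dixon's ratio, the gap of the most distant array divided by the range of the 4 arrays, was computed for 54 receptor genes called on at least 1 array, on the log2 level for 48 and on the signal for 6 with a value at or below 0. It marked 3 of the 48 on the log2 level (6.25%), beside 8.23% of 22363 genes of the array called on at least 1 array on the same scale, and 3 of the 6 on the signal. Chance marks about 5%, a share that does not apply to the 6 genes on the signal. Each of these was called on 1 array only and read at or below 0 on another. A distant array was thus built into their choice, and no share of all genes on the signal was computed. OR10W1 had a ratio of 0.964 on the log2 level, with replicate 1 the highest at a gene signal of 32.1 against 4.47 to 7.19. The OR10W1 ratio is that of 2 overlapping probes combined, and each probe alone was more evenly spread. The called probe read -0.602, -3.727, -2.472 and -3.123 on replicates 1 to 4. The other read -2.525, -4.265, -5.344 and -4.803, with replicate 1 the highest on both. OR56A3 had a ratio of 0.95 on the signal, with 86.5 on replicate 3 and between -3.32 and 1.17 on the other 3. OR5M9 had 0.945 on the signal, with 83.1 on replicate 1 and at most 2.07 elsewhere, and OR52A5 had 0.892, with 81.5 on replicate 3. OR4X2 had 0.858 on the log2 level, where replicate 3 was 0.21 and the others between 0.53 and 0.58. OR51I2 had 0.836 on the log2 level, where replicate 1 was 0.36 and the others between -0.48 and -0.35. This level combines 2 probes. The probe called on all 4 arrays alone read 1.68, 1.36, 0.67 and 1.31 on replicates 1 to 4, with replicate 3 the lowest. The causes were not tested.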

How the results depend on the processing

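With the call for a positive and significant signal, a weaker flag than well above background, 59 receptor genes of chromosome 11 were called on all 4 arrays, 59 on some and 51 on none, with 65.7% of all gene names on all 4 arrays and 85.8% on at least 1, and 78 receptor genes of other chromosomes on all 4. Under that call all 28 genes stayed on all 4 arrays, and of the 113 called on no array 14 came to all 4, 48 to some and 51 to none. Taken over every chromosome, receptor genes numbered 65 on all arrays, 62 on some and 253 on none. Keeping outlier spots gave 54.2% of all gene names on all 4 arrays. A cluster gap of 0.5 Mb left 19 other genes on all 4 arrays. On the processed signal, uncalled receptor probes exceeded the negative controls by 0.327. After normexp and quantile normalization the median SD of the 28 genes was 0.147. With each array left out in turn, 28 to 30 receptor genes were called on all arrays, 20 to 26 on some and 114 to 119 on none, the share of all gene names ran from 52.8% to 54.2% on all arrays and from 62.1% to 64.0% on at least 1, the other counts kept within 1.5 times, and the median SD ran from 0.1555 (without replicate 3) to 0.243. Log2 levels of all 28 genes moved by more than 1 SD with the processed signal and with signals at or below 1 set to 1, where the array centres shifted by between -1.216 and -0.992 by construction, of 18 genes after normexp and quantile normalization and of 3 with only called probes. Counting arrays with an outlier spot as missing, chosen after seeing the data, gave 30, 26 and 113. With all probes of a gene required, 24 receptor genes were called on all 4 arrays, 25 on some and 120 on none. The share of all gene names under that rule was not computed. The array held 50599 probes for 36337 gene names, and 185 for the 169 receptor genes. A rule of at least 1 called probe is easier to meet with more probes. No paired analysis was possible because the untreated samples, which share replicate numbers with the treated ones, were not analysed here. Signals below about 21 never carried the flag for well above background, so a transcript at that level counts as uncalled here.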
